A study of Mus musculus with 135 samples.

Results

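H3K4me3 was compared in heart muscle cells of 2 inbred mouse strains, C57BL/6J (B6) and DBA/2J (D2), as reads counted in peaks by chromatin immunoprecipitation of MNase-digested chromatin. The comparison holds 6 libraries, 3 of B6 and 3 of D2, of the 135 samples of the series, and all peaks of the deposited cardiomyocyte count table were used. The cells came from female mice 8 weeks old, and no treatment or transgene is named for either strain. The same table holds 3 libraries each of BXD75 and BXD87, 2 recombinant inbred lines whose genomes are mosaics of B6 and D2. The same 2 founder strains were also assayed in hepatocytes, with 3 libraries each. Whether any 2 libraries of a strain come from different mice is not stated in the labels, so the p-values measure the spread between libraries, which may be technical. The question is where the mark differs between the 2 strains in libraries labelled as cardiomyocytes.

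H3K4me3 is the trimethylation of lysine 4 of histone H3, laid down mainly by the SET1 and MLL complexes around the start sites of active genes. In differentiated cells the widest and strongest domains of the mark often lie over genes that define the cell type. In the heart such genes include those of the sarcomere, the contractile unit built of myosin thick filaments, actin thin filaments and the titin spring, and those of fatty acid oxidation, the main fuel pathway of adult heart muscle. B6 and D2 are the parents of the BXD panel, and a peak that differs between the parents should follow the parental segment in a BXD line when its level is set by the local sequence.

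Promoter sequences of some genes named in the results for heart muscle and for the BXD lines are shown first. They are RefSeq sequences of GRCm38.p6, from 250 bases before to 50 bases after each gene's start, given 5′ to 3′ on the gene's strand. Of the 10 sarcomere genes with a called difference at a peak of like span, 6 were found in the promoter table, and the first 3 lines below are the promoters among them that hold a motif searched for. The motifs were the CArG box, which serum response factor binds, the MEF2 motif, TATAAA and GATAAG, read on both strands, and the capitals mark the match. Ttn lies on the minus strand at chr2:76982498-76982797 and holds a MEF2 motif 166 bases before its start. Ldb3 lies on the minus strand at chr14:34588632-34588931 and holds a CArG box 35 bases before its start. Tnni3 lies on the minus strand at chr7:4522479-4522778 and holds GATAAG on the opposite strand, so that the line reads CTTATC, 24 bases after its start.
Ttn: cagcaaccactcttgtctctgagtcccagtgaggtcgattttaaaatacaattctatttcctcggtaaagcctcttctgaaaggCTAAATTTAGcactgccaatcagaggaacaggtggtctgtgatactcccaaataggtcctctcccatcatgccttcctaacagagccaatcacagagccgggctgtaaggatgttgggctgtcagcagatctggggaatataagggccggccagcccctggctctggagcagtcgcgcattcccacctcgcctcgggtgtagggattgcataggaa
Ldb3: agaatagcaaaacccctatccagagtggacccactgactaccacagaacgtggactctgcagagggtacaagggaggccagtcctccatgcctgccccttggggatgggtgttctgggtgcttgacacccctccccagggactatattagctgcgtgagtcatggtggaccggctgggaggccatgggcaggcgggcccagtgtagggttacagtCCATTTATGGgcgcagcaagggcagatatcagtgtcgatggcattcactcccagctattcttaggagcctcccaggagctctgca
Tnni3: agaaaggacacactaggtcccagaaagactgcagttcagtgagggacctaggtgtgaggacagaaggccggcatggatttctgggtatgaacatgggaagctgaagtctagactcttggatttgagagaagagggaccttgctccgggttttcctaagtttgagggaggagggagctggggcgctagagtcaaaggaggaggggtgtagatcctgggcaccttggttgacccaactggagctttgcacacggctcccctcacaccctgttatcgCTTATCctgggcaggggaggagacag
The next 2 lines, with no capitals, are the promoters of genes at which the BXD lines took opposite parental levels, Fggy on the plus strand at chr4:95557257-95557556 and Hdhd3 on the minus strand at chr4:62502151-62502450.
Fggy: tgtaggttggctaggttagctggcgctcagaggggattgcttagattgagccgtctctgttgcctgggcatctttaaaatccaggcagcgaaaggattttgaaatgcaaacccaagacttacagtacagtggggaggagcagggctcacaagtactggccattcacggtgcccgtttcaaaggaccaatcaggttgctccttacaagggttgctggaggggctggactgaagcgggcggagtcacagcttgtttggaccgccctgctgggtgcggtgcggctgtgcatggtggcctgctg
Hdhd3: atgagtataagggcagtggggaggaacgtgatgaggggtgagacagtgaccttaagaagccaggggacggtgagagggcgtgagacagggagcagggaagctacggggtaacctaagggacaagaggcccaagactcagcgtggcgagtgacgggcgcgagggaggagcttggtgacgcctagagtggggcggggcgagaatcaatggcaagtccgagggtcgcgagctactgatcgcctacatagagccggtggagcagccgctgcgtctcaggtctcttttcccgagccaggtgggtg
Of all 32544 promoters of the table, 1.64% held a CArG box, 3.16% a MEF2 motif, 13.6% TATAAA and 7.32% GATAAG. Csrp3, Lmod2 and Ankrd1, the other 3 sarcomere promoters found, held none of the 4 motifs, so the set shares no motif among those searched. The sequences were chosen after the values were seen, and a match is a run of letters, not a measured site.

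The D2 libraries were shallow. B6 libraries 1, 2 and 3 held 8338075, 6839220 and 8243351 reads in peaks, against 4104501, 4035233 and 2618483 in D2 libraries 1, 2 and 3, and the BXD libraries held 7149901 to 12775606. Correlations of log2 levels across peaks were 0.952 to 0.986 within B6, 0.971 to 0.979 within D2 and 0.895 to 0.963 between the strains. Of 10 cardiomyocyte markers 7 had a promoter peak (Actn2, Ryr2, Ttn, Myl2, Tnni3, Nkx2-5 and Gata4), against 2 of the 10 in the hepatocyte table. Myh6, Tnnt2 and Nppa had no tested promoter peak. Promoter peaks were also present for 10 of 14 fibroblast, 10 of 14 endothelial and 10 of 12 smooth muscle and pericyte markers, for 2 of 16 macrophage and leukocyte markers (Cd68 and Fcer1g), and for 1 of 10 hepatocyte markers (Apoa1), 9 of which had one in the hepatocyte table. Promoters of markers of other heart cells were thus also marked, and in such bulk samples fewer cells of a type and less mark per cell cannot be told apart.

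Libraries also differed in how their signal leaned on base composition. The first principal component held 62.1% of the variance among the 12 libraries, and its loadings followed the GC content of the peaks with a Spearman correlation of 0.776 across peaks, which share libraries and are not independent. The slope of a library's log2 level over peak GC content, per 10% GC, was -0.11, 0.43 and -0.35 in B6 libraries 1, 2 and 3, against 0.30, 0.57 and 0.65 in the 3 D2 libraries. B6 library 2 stood among the D2 libraries in this respect and apart from the other B6 libraries. The slopes of the 2 strains differed by an exact two-sided permutation p of 0.2, where 3 against 3 libraries cannot go below 0.1. Log2 differences between B6 and D2 fell with GC content across all peaks (Spearman correlation -0.549), so the counts over all peaks and over the gene lists are also given from a fit with offsets by GC content.

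**Figure D1:**
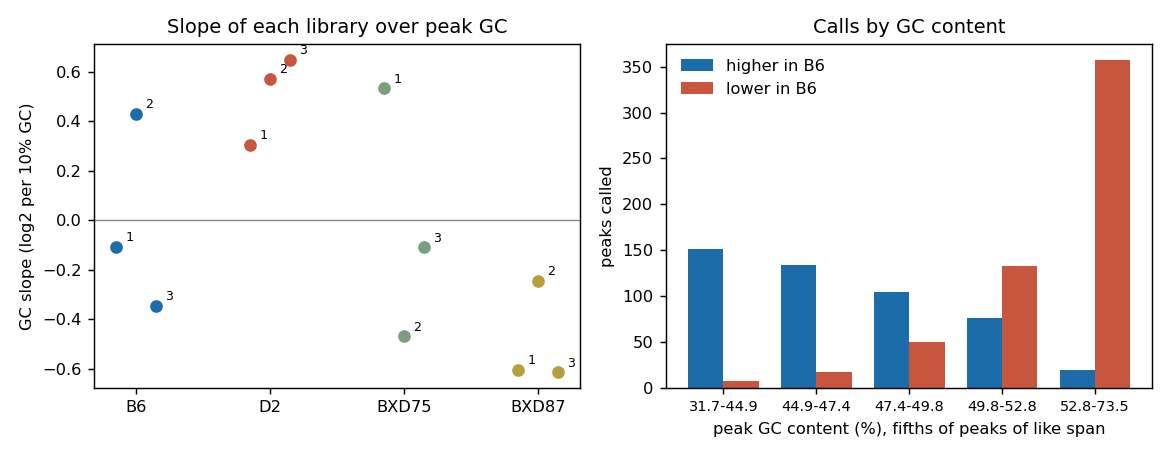
The left panel plots the slope of each library's log2 level over peak GC content, in log2 units per 10% GC, with 1 point per library and its number beside it. The right panel counts the peaks of like span called higher or lower in B6 in 5 equal classes of peak GC content: 151 were higher and 7 lower in the class with the least GC, and 19 higher and 357 lower in the class with the most.

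Across 23809 peaks tested, 1551 (6.51%) differed between B6 and D2 at an adjusted p under 0.05 in edgeR's quasi-likelihood test, of which 967 (4.06%) were higher and 584 (2.45%) lower in B6. Such peaks are called from here on. A promoter peak lies within 1 kb of an annotated start, and of 12920 promoter peaks 1099 (8.51%) were called, 702 (5.43%) higher and 397 (3.07%) lower in B6. Among the other 10889 peaks 452 were called. The median log2 difference, B6 minus D2, was -0.02 over all peaks and -0.04 over promoter peaks, a centre that the scaling sets near 0. Of the called peaks 417 differed by more than 2-fold. The libraries of the 2 strains did not overlap at 7945 peaks (33.4%). The count of calls rested on single libraries: it was 3679 without B6 library 2, and 533, 545, 704, 502 and 708 without B6 libraries 1 and 3 and D2 libraries 1, 2 and 3 in turn.

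The difference followed the spans that the authors' table gives for each peak. Each peak has coordinates on mm10, the B6 reference, and on a second genome, and 8908 of the tested peaks were found on both, 14804 on the reference alone and 97 on the second alone. Where the second span was under 0.25 of the mm10 span, 29 of 29 peaks found on both genomes were called higher in B6, with a median log2 difference of 1.89. Between 0.25 and 0.50 of the mm10 span 161 of 179 were called (median 0.98), between 0.50 and 0.80 240 of 634 (0.34), and between 0.95 and 1.05 372 of 7411 (-0.08). The BXD lines did not share this: in the lowest class the median log2 difference was -0.02 for B6 minus BXD75 and -0.15 for B6 minus BXD87. The sources do not say on which span each library was counted, so at peaks of unlike span the mark and the counted interval cannot be told apart. Results below are therefore read from the 22178 peaks of like span, whose second span lies within 5% of the mm10 span, and any other peak is named with its spans.

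**Figure D2:**
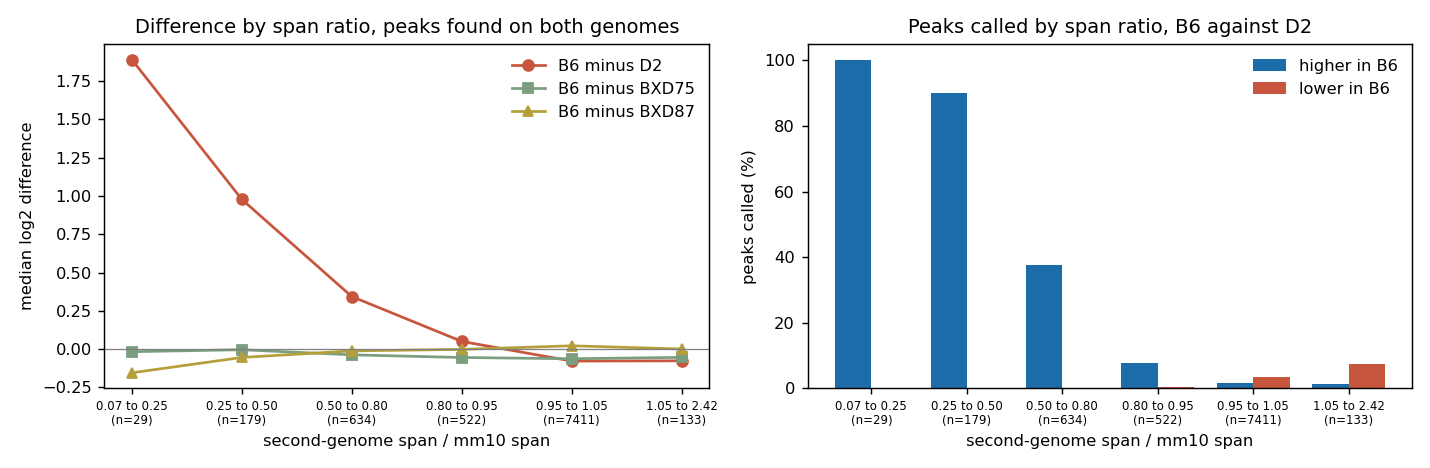
The left panel plots the median log2 difference of B6 minus D2, BXD75 or BXD87 for peaks found on both genomes, in classes of the second-genome span over the mm10 span; only the line against D2 rises at low ratios, to 1.89. The right panel gives the percent of peaks in each class called higher or lower in B6 against D2, from 29 of 29 called higher in the lowest class to 117 higher and 255 lower of 7411 between 0.95 and 1.05.

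Of the peaks of like span 1048 (4.73%) were called, 484 (2.18%) higher and 564 (2.54%) lower in B6, and among the 11430 that are promoters 625 (5.47%) were called, 246 (2.15%) higher and 379 (3.32%) lower in B6. Fitted on their own they gave 528 calls (2.38%), 326 (1.47%) higher and 202 (0.911%) lower in B6, with 315 of the promoters called (2.76%). With offsets by GC content the same peaks gave 1891 calls (8.53%), 1245 (5.61%) higher and 646 (2.91%) lower in B6, with 1033 of the promoters called (9.04%), 709 (6.2%) higher and 324 (2.83%) lower in B6. The direction of the majority thus depended on the fit, from 484 against 564 to 1245 against 646, and a peak described below whose call changed with GC offsets is given with its value there. The counts of a gene list are to be read against these shares of all promoters. They are 5.43% higher in the fit over all peaks and 6.2% higher over peaks of like span with GC offsets. Calls higher in B6 also rose with level and width, for which the lists were not matched. Of all peaks in 5 equal classes of level, 9.95% of the most marked were called higher, against 1.70% of the least marked. Of peaks of like span in 5 equal classes of width, 4.91% of the widest were called higher, against 1.06% of the narrowest.

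Genes of the sarcomere carried more H3K4me3 in B6 than in D2 cardiomyocyte libraries. Of 23 sarcomere genes with a promoter peak, 14 were called higher and none lower in B6, with a median log2 difference of 0.61 against -0.04 over all promoter peaks. Of the 18 with a peak of like span, 10 were called higher and none lower (median 0.56), and with GC offsets 12 of the 18 were called higher and none lower (median 0.46). The summed level of these 18 promoters was 2212, 2298 and 2394 CPM, counts scaled to the reads in all peaks of a library, in B6 libraries, against 1654, 1656 and 1642 CPM in D2 libraries, and was 2016, 2271 and 2146 CPM in BXD75 and 2619, 2832 and 2756 CPM in BXD87. The D2 libraries lay below all 9 others.

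The largest of these differences at peaks of like span was at Ttn, which encodes titin, the elastic filament that spans the sarcomere from Z-disc to M-band. Its promoter peak (chr2:76979610-76985317, mm10 span 5707 bp, second span 5632 bp) had 46.1, 35.0 and 57.5 CPM in B6, against 23.9, 18.9 and 23.4 CPM in D2. Every B6 library lay above every D2 library, and the log2 difference was 1.07 ± 0.19 (SE) with an adjusted p of 0.00474, or 0.76 with GC offsets. Myom2, a myomesin that links thick filaments at the M-band, had 132, 110 and 147 CPM in B6, against 69.5, 75.6 and 68.4 CPM in D2 (log2 difference 0.86 ± 0.10, adjusted p 0.000128). Lmod2, a leiomodin that sets thin filament length, had 152, 143 and 162 CPM in B6, against 95.1, 80.2 and 83.2 CPM in D2 (0.82 ± 0.12, adjusted p 0.000673). Neither gene's B6 libraries overlapped its D2 libraries.

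Further sarcomere genes of the filaments and of the Z-disc moved the same way. Among filament genes, Myl2, the ventricular regulatory light chain of myosin, had 58.9, 88.4 and 76.3 CPM in B6, against 34.5, 52.3 and 43.5 CPM in D2, and Tnni3, cardiac troponin I, had 113, 131 and 109 CPM in B6, against 70.7, 70.4 and 92.2 CPM in D2. In neither did the strains overlap. Among genes of the Z-disc and its partners, Ldb3, a PDZ and LIM protein that stabilises the Z-disc, averaged 234 ± 27.9 CPM in B6 and 148 ± 7.36 CPM in D2 (SD, n = 3 each), and Csrp3, the muscle LIM protein, averaged 210 ± 27.6 CPM in B6 and 131 ± 11.7 CPM in D2. Ankrd1, a cardiac ankyrin repeat protein that binds titin, averaged 71.3 ± 6.32 CPM in B6 and 45.4 ± 4.61 CPM in D2. Xirp1, an actin-binding protein of the intercalated disc, and Cryab, a small heat shock protein that protects the filaments, rose by log2 0.52 and 0.42 in B6. All 10 promoters had their 3 D2 libraries below their 3 B6 libraries.

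The remaining 8 sarcomere genes of like span were not called. Tpm1, a tropomyosin, averaged 240.5 CPM in B6 and 204 CPM in D2 (log2 difference 0.24 ± 0.09, adjusted p 0.107), and Tnnc1, cardiac troponin C, averaged 161 CPM in B6 and 135 CPM in D2 (0.26 ± 0.08, adjusted p 0.0654, called with GC offsets at 0.43). Mybpc3, the cardiac myosin-binding protein C, with a second span 0.84 of mm10, averaged 144 CPM in B6 and 116 CPM in D2 and was not called (log2 difference 0.31, or 0.49 and called with GC offsets over all peaks). Of unlike span were 4 called sarcomere promoters: Mylk3, the cardiac myosin light chain kinase, with a second span 0.43 of the mm10 span and a log2 difference of 1.95, Myom1 (0.64 and 0.91), Myl3 (0.75 and 0.68) and Flnc (0.76 and 0.41). The call of 14 members was 8 without D2 library 2 and 10 to 14 without any other single library.

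**Figure D3:**
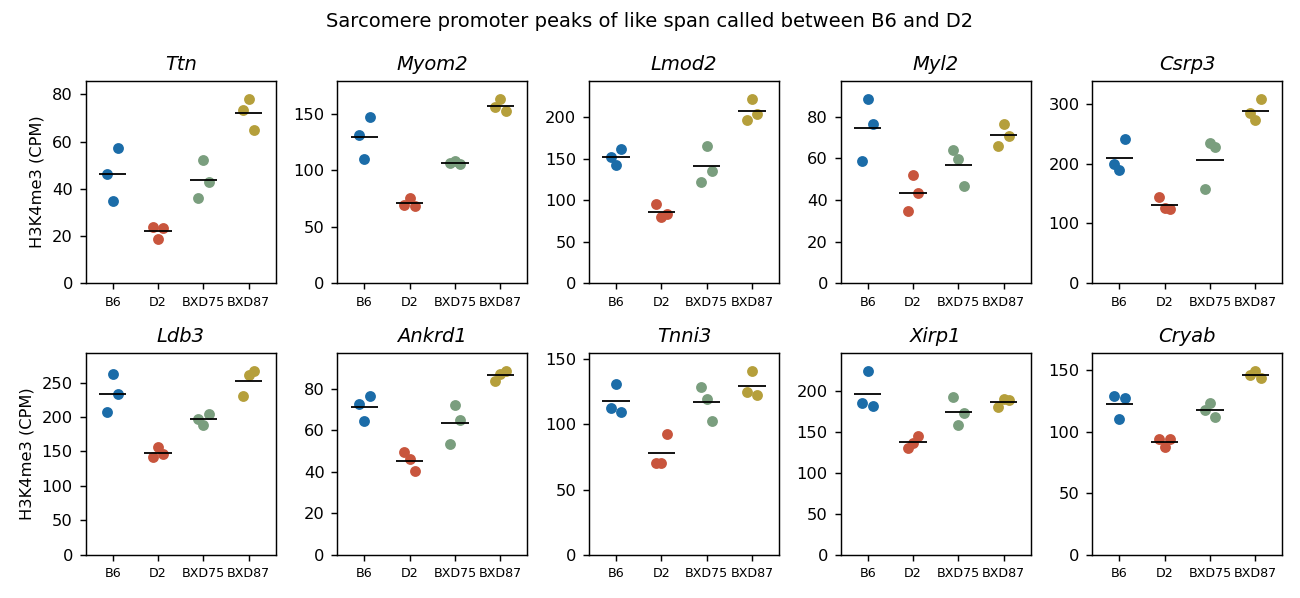
Each panel plots the H3K4me3 level in CPM of 1 sarcomere promoter of like span called between B6 and D2, with 1 point per library and a line at the mean of the 3 libraries of B6, D2, BXD75 and BXD87. The 3 D2 points lie below the 3 B6 points in all 10 panels, as at Ttn with 46.1, 35.0 and 57.5 CPM in B6 and 23.9, 18.9 and 23.4 CPM in D2.

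Markers of other heart cells were set beside the sarcomere genes. Fibroblast marker promoters of like span summed to 272, 281 and 270 CPM in B6, against 322, 299 and 330 CPM in D2. Over all 10 fibroblast markers the sums overlapped, at 420, 472 and 420 CPM in B6 against 469, 447 and 518 CPM in D2. The median log2 difference of the 10 was -0.24, with none called. With GC offsets 1 of the 8 of like span was called, Dcn, the proteoglycan decorin, lower in B6 (log2 difference -0.76). For smooth muscle and pericyte markers of like span the sums were 533, 580 and 520 CPM in B6, against 613, 648 and 633 CPM in D2. Their median over 10 markers was -0.30, and Notch3, a receptor of mural cells, was the 1 called, with 32.9, 49.0 and 28.6 CPM in B6 and 54.5, 71.3 and 72.6 CPM in D2. Endothelial sums overlapped, at 803, 918 and 779 CPM in B6 against 859, 854 and 949 CPM in D2, with none of 10 called and a median of 0.04 over all 10 and -0.14 over those of like span. With GC offsets 1 of the 6 of like span was called, Egfl7, at 0.29. Among the most marked members, Pdgfra of fibroblasts averaged 133 CPM in B6 and 126 CPM in D2 (0.32 and called with GC offsets, at a span ratio of 0.83) and Vim 98.2 CPM in B6 and 104 CPM in D2, Mcam of mural cells 133 CPM in B6 and 170 CPM in D2, and Egfl7 of endothelium 352 CPM in B6 and 349 CPM in D2. Of the 5 epicardial and endocardial markers with a peak none was called (median -0.24, and 0.01 with GC offsets over peaks of like span). Of the 2 macrophage and leukocyte markers with a peak, 1 was called higher in B6, at an unlike span. The other, of like span, was not called (log2 difference 0.22). The sums of these 2 were 227, 229 and 228 CPM in B6, against 173, 168 and 155 CPM in D2. The part of these shifts in the sarcomere result was not tested.

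Which genes of calcium handling were called depended on the fit. Of 17, 1 was called higher and none lower over all peaks, Pln, the gene of phospholamban, which restrains the calcium pump of the sarcoplasmic reticulum. Pln had 104, 80.4 and 139 CPM in B6, against 61.3, 58.0 and 57.4 CPM in D2, with a log2 difference of 0.87 ± 0.20 and an adjusted p of 0.0199, but 0.42 and not called with GC offsets (adjusted p 0.0807). The strains did not overlap there, and B6 varied more than D2. With GC offsets 3 of the 16 of like span were called higher and none lower, which were Casq2 (0.26), Cacna2d1, a calcium channel subunit (0.42), and Hrc, a calcium-binding protein of the sarcoplasmic reticulum (0.34). Ryr2, the calcium release channel, averaged 200.2 CPM in B6 and 165 CPM in D2 (0.28 ± 0.13, adjusted p 0.21), and Jph2, which holds that channel to the membrane, 330.3 CPM in B6 and 289.6 CPM in D2 (0.19 ± 0.11, adjusted p 0.297). Casq2, which stores calcium beside that channel, averaged 216 CPM in B6 and 170 CPM in D2 (0.34 ± 0.11, adjusted p 0.0785 without GC offsets). The median was 0.19 over the 17 and 0.24 over those of like span with GC offsets.

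Among 24 genes of ion channels and conduction 5 were called higher and 2 lower in B6, but 4 of the higher ones were of unlike span: Gja1, the main gap junction protein of ventricle (second span 0.46 of mm10), and the inward rectifiers Kcnj2 (0.59), Kcnj3 (0.73) and Kcnj5 (0.72). The other was Popdc2, a cyclic AMP binding protein of pacemaking, whose promoter peak is shared with Cox17 and had 357, 349 and 362 CPM in B6, against 281, 244 and 276 CPM in D2. The lower ones, the sodium channel subunit Scn4b (log2 difference -0.57, adjusted p 0.042) and the pacemaker channel Hcn2 (-0.80, adjusted p 0.0497), were not called in the fit over peaks of like span, with GC offsets (-0.18 and -0.23) or without. With GC offsets 5 of the 18 of like span were called higher and none lower, against 1 higher and 2 lower without them. The median was -0.07 over members of like span and 0.13 with GC offsets, so no direction is given for the list. The potassium channels Kcnh2, with means of 232 CPM in B6 and 244.5 CPM in D2, and Kcnq1, with 200.2 CPM in B6 and 166 CPM in D2, were not called in the fit over all peaks, and Kcnq1 was called with GC offsets (log2 difference 0.39, adjusted p 0.0231).

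Transcription factors of the heart were called higher at 8 of 22 promoters and lower at none, with a median log2 difference of 0.37. Of like span were 16, with 3 called higher and a median of 0.26, or 4 and 0.21 with GC offsets. Irx4, a homeobox factor of ventricular muscle, had 245, 260 and 274 CPM in B6, against 189, 184 and 171 CPM in D2 (log2 difference 0.52 ± 0.10, adjusted p 0.00978). Myocd, the myocardin coactivator of serum response factor, had 113, 99.8 and 128 CPM in B6, against 76.1, 67.3 and 68.0 CPM in D2 (0.69 ± 0.16, adjusted p 0.0204). Tbx20, a T-box factor needed in adult heart muscle, had 265, 241 and 293 CPM in B6, against 217, 184 and 195 CPM in D2 (0.42 ± 0.11, adjusted p 0.039, or 0.26 and not called with GC offsets). In none of the 3 did the strains overlap. Gata4, by contrast, averaged 331 CPM in B6 and 317 CPM in D2 (0.06 ± 0.10), and Hand2 404.5 CPM in B6 and 330.5 CPM in D2 (0.29 ± 0.12, adjusted p 0.134). The other called factors, Gata6, Nkx2-5, Tbx5, Mef2a and Mef2d, had second spans of 0.36, 0.60, 0.86, 0.64 and 0.51 of their mm10 spans.

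Fuel metabolism followed the same direction at fewer promoters. Of 27 genes of fatty acid uptake and oxidation, 8 were called higher and none lower in B6 (median 0.38), 4 of them among the 21 of like span (median 0.31). With GC offsets 6 of the 21 were called higher and none lower (median 0.15). The 4 were Fabp3, the fatty acid binding protein of heart, with 157, 159 and 164 CPM in B6 against 117, 122 and 103 CPM in D2, Acadm, the medium-chain acyl-CoA dehydrogenase (log2 difference 0.46), Etfb, an electron transfer flavoprotein subunit (0.41), and Pdk4, the kinase that shuts off pyruvate dehydrogenase (0.51). Cd36, the fatty acid transporter, averaged 295 CPM in B6 and 222 CPM in D2 and was not called (0.41 ± 0.28), nor was Acsl1, which activates fatty acids, with 206 CPM in B6 and 180 CPM in D2. Cpt1b, the muscle enzyme of fatty acid entry into mitochondria, had 204, 228 and 181 CPM in B6 against 58.9, 59.7 and 55.9 CPM in D2, but its second span was 0.26 of its mm10 span.

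Of 22 genes of glucose metabolism 11 were called higher and none lower in B6 (median 0.28). Of the 17 of like span 6 were called, with log2 differences of 0.31 to 0.43: the glycolytic enzymes Gpi1, Pfkm, Pgam2 and Pkm, the heart lactate dehydrogenase Ldhb, and Pdha1 of pyruvate dehydrogenase. Their median was 0.15. With GC offsets 5 of the 17 were called higher and none lower (median 0.24), and Ldhb (0.24) and Pdha1 (0.35) were not. Hk1, Hk2, Tpi1, Gapdh and Pygb were called at unlike spans of 0.49 to 0.80 of mm10. Eno3, the muscle enolase, averaged 396 CPM in B6 and 405 CPM in D2 (log2 difference -0.03 ± 0.08), and Aldoa, an aldolase, 204 CPM in B6 and 207 CPM in D2.

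Respiratory chain genes were called higher at 6 of 45 promoters and lower at none, with a median of 0.22 (-0.01 over all peaks with offsets by GC content and level). Over peaks of like span with GC offsets 3 of 40 were called higher and none lower (median 0.11), near the share of all such promoters. Cox6a2 and Cox8b, the muscle forms of 2 cytochrome oxidase subunits, were among the called ones in both fits, with Atp5g3. Cox6a2 had 68.6, 61.6 and 68.8 CPM in B6, against 40.6, 39.1 and 41.6 CPM in D2 (log2 difference 0.72 ± 0.09, adjusted p 0.00024), and Cox8b had 81.3, 79.8 and 77.4 CPM in B6, against 56.3, 50.8 and 57.8 CPM in D2 (0.53 ± 0.11, adjusted p 0.0135). The strains did not overlap at either gene. The broadly expressed Atp5b averaged 281 CPM in B6 and 268 CPM in D2 (0.07 ± 0.09), and Ndufs7 of complex I averaged 294 CPM in B6 and 314.5 CPM in D2 (-0.10 ± 0.08).

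**Figure D4:**
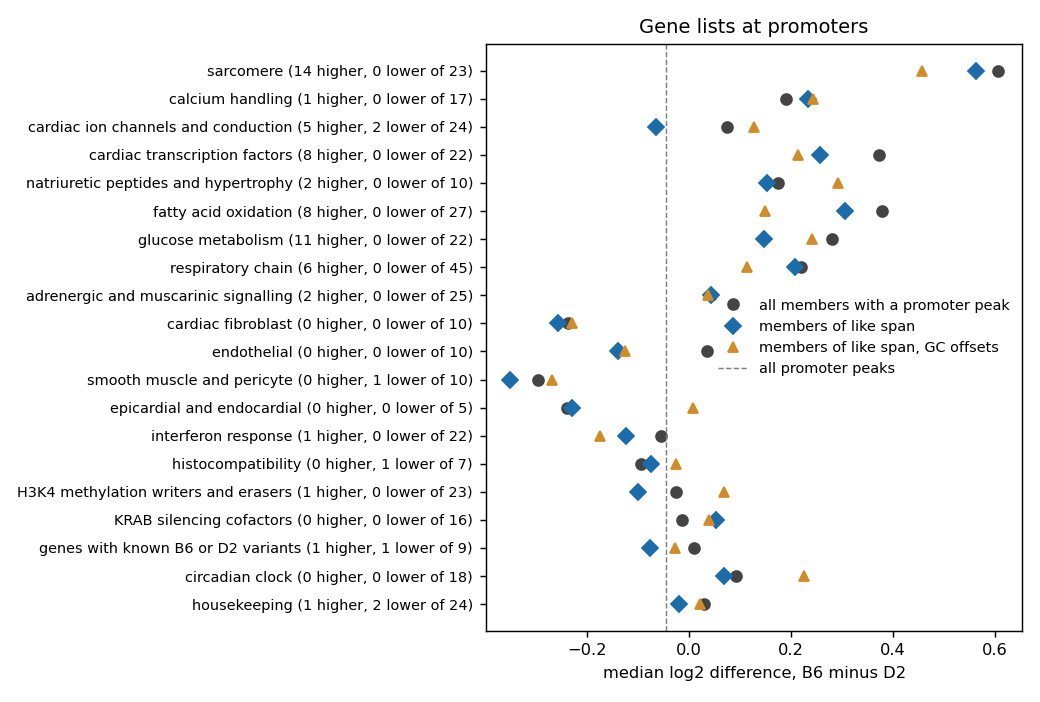
Each row plots the median log2 difference, B6 minus D2, of 1 gene list at promoter peaks, over all members, over members of like span and over those with GC offsets, and the dashed line is the median of all promoter peaks. The sarcomere list lies farthest to the right at 0.61, 0.56 and 0.46, and smooth muscle and fibroblast markers lie to the left.

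The other lists held few calls in the fit over all peaks, and some held more with GC offsets. Of 10 natriuretic peptide and hypertrophy genes 2 were called higher (Ankrd1, and Hmox1 with a second span 0.57 of mm10), and with GC offsets 4 of the 9 of like span (Ankrd1, Fos, Jun and Atf3). Of 25 genes of adrenergic and muscarinic signalling 2 were called, Gnas at a span ratio of 0.57 and Chrm2 at like span, and with GC offsets 6 of the 21 of like span were called higher and 2 lower. Chrm2 encodes the muscarinic receptor that slows the heart and had 122, 101 and 128 CPM in B6, against 83.8, 78.3 and 76.7 CPM in D2, with no overlap (log2 difference 0.55 ± 0.10, adjusted p 0.00503). None of 18 circadian clock genes and none of 16 cofactors of KRAB silencing was called over all peaks. With GC offsets 4 of the 17 clock genes of like span were called higher (Dbp, Hlf, Nfil3 and Bhlhe41) and none of the 15 KRAB cofactors. Nr1d1, a clock repressor, averaged 480 CPM in B6 and 475 CPM in D2. Of 23 writers and erasers of H3K4 methylation 1 was called, Smyd1, at a span ratio of 0.80. With GC offsets 2 of the 21 of like span were called higher, the methyltransferases Kmt2b (0.59) and Setd1b (0.50), and Setd1b averaged 326 CPM in B6 and 313 CPM in D2. Among 22 interferon response genes Usp18 was called at a span ratio of 0.83 (log2 difference 0.38, or 0.24 and not called with GC offsets), and none of the 17 of like span was called with GC offsets. Of 24 housekeeping genes Gapdh (span ratio 0.69) was called higher and Rps18 (1.06) and Eef2 (1.97) lower in B6, each at an unlike span, with Rps18 at -0.14 and not called with GC offsets, while Actb averaged 248 CPM in B6 and 257 CPM in D2.

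Lower marks in B6 were measured at 2 genes of lists that concern known strain differences. Glo1, glyoxalase 1, lies in a segment that is known to be duplicated in D2 and not in B6. Its promoter peak of like span had 45.2, 34.1 and 42.3 CPM in B6, against 68.3, 69.0 and 67.3 CPM in D2, without overlap (log2 difference -0.75 ± 0.11, adjusted p 0.000806, and -0.83 with GC offsets). Both BXD lines stood at the B6 level there, with means of 42.2 CPM in BXD75 and 43.7 CPM in BXD87. H2-T23, which encodes the nonclassical histocompatibility protein Qa-1, had 23.4, 27.4 and 17.7 CPM in B6, against 70.4, 74.5 and 85.0 CPM in D2 (log2 difference -1.75 ± 0.16). Its second span was 0.83 of its mm10 span, so here the level was lower in the strain of the longer span. BXD75 and BXD87 averaged 51.8 and 61.2 CPM at H2-T23, between the parents.

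Outside the lists, the strongest gains in B6 at promoters of like span were at genes of mixed function. Zfp995, a zinc finger gene, had 7.22, 8.46 and 6.17 CPM in B6 and no read in any D2 library, and Mfsd8, a lysosomal membrane protein, had 6.86, 3.06 and 7.38 CPM in B6 and no read in D2. With a floor of 3 reads over the D2 libraries these are at least 26.9-fold and at least 21.3-fold higher in B6. BXD75 and BXD87 had reads at Zfp995 and Mfsd8, and on which genome each library was counted is not stated. Among peaks with reads in both strains, Fggy, a carbohydrate kinase, had 25.6, 22.6 and 30.6 CPM in B6, against 12.7, 8.11 and 8.32 CPM in D2 (log2 difference 1.42 ± 0.22, adjusted p 0.00113). Cyp4f16, a cytochrome P450, had 26.3, 23.9 and 23.96 CPM in B6, against 9.16, 8.83 and 10.2 CPM in D2 (2.64-fold higher in B6, adjusted p 0.000749). Lack of overlap between the strains was a condition for naming these 4 promoters. They were called in each of the 6 fits that left out 1 library.

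The next largest differences were smaller in fold and at more marked promoters. Abra, an actin-binding protein of striated muscle, had 110, 77.3 and 102 CPM in B6, against 46.5, 45.6 and 46.1 CPM in D2 (log2 difference 1.07 ± 0.14, adjusted p 0.000362). Clu, the extracellular chaperone clusterin, had 68.0, 58.2 and 74.4 CPM in B6, against 36.4, 35.8 and 33.3 CPM in D2 (0.92 ± 0.11, adjusted p 8.72e-05). Ddo, D-aspartate oxidase, and Frmd5, a FERM domain protein, rose by log2 1.04 and 0.96 in B6. Rab6b, a Rab GTPase of Golgi transport, rose by 1.02, Art4, an ADP-ribosyltransferase, by 0.93, and Asb11, a SOCS box protein, by 0.92. All 7 kept the call with GC offsets, and Asb11 was called in 2 of the 6 fits that left out 1 library. Asb11 was not called in the fit over peaks of like span alone.

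Art4 and Rab6b differed from Ttn in the BXD lines. Art4 had 88.6, 59.5 and 87.4 CPM in B6 and 39.7, 44.6 and 38.9 CPM in D2, with means of 34.9 CPM in BXD75 and 32.0 CPM in BXD87. Rab6b had 92.9, 103 and 90.1 CPM in B6 and 41.6, 51.1 and 48.8 CPM in D2, with means of 49.7 CPM in BXD75 and 15.6 CPM in BXD87. Both lines thus lay within or below the range of the D2 libraries, while at Ttn they averaged 43.8 CPM in BXD75 and 72.0 CPM in BXD87, within or above the range of the B6 libraries.

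Among the promoters with the most H3K4me3, those of like span called higher in B6 were Usp2 (a deubiquitinase with 307, 330 and 319 CPM in B6, against 246, 257 and 254 CPM in D2), Bag3, Meis2, 1110002E22Rik and the peak shared by Cox17 and Popdc2. Bag3, a co-chaperone that clears damaged Z-disc proteins, had 289, 295 and 323 CPM in B6, against 226, 203 and 216 CPM in D2 (log2 difference 0.49 ± 0.10, adjusted p 0.0123). Meis2, a homeobox factor, had 318, 278 and 344 CPM in B6, against 250.4, 240 and 235 CPM in D2, a call lost with GC offsets (log2 difference 0.24). Lower in B6 were Itpkb, an inositol phosphate kinase (343, 427 and 320 CPM in B6, against 499, 485 and 462 CPM in D2), Plxnd1, a semaphorin receptor of endothelium, the SMAD corepressor Ski, the Notch regulator Nrarp, and Baiap2. With GC offsets Itpkb kept its call at -0.38, while Plxnd1 (-0.07), Ski (-0.27), Nrarp (-0.05) and Baiap2 (-0.19) did not. In the fit over peaks of like span alone, Itpkb, Plxnd1, Ski and Nrarp were not called. At these 5 promoters B6 library 2 was the highest of the B6 libraries.

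Promoters lower in B6 included several with almost no B6 reads, found on the second genome alone. Of 97 peaks found there alone 57 were called, 56 of them lower in B6. Nid1, nidogen 1 of basement membranes, had a peak (chr13:13436792-13441722) with 0.36, 0.44 and 0.61 CPM in B6, against 104, 111 and 130 CPM in D2. Rtl8a, a retrotransposon-derived gene, had at most 0.12 CPM in a B6 library and 13.1, 14.6 and 14.7 CPM in D2. Syt11, a synaptotagmin, had 0.95, 1.02 and 1.09 CPM in B6, against 30.3, 24.1 and 30.6 CPM in D2. At all 3 both BXD lines carried the mark, with means of 102 and 91.2 CPM at Nid1, 14.5 and 11.1 CPM at Rtl8a, and 48.3 and 44.4 CPM at Syt11 in BXD75 and BXD87. As the genome on which each library was counted is not stated, an absent mark and uncounted reads cannot be told apart here.

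Cntfr and Nsfl1c showed the same order at peaks that were found on the reference. Cntfr, the receptor of ciliary neurotrophic factor, had 4.14, 7.00 and 5.81 CPM in B6, against 48.6, 57.3 and 58.6 CPM in D2 (log2 difference -3.28 ± 0.25, or -2.47 with GC offsets). Nsfl1c, a cofactor of the p97 ATPase, had 19.2, 20.3 and 14.8 CPM in B6, against 70.9, 75.2 and 108 CPM in D2 (-2.22 ± 0.18). BXD75 and BXD87 averaged 69.4 and 54.5 CPM at Cntfr and 63.7 and 44.4 CPM at Nsfl1c.

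A second set of lower promoters, also found on the second genome alone, showed the BXD lines at the B6 level. The genome on which each library was counted is not stated for these either. Glp1r, the receptor of glucagon-like peptide 1, which lies on chromosome 17 as Glo1 does, had 3.67, 7.59 and 3.27 CPM in B6, against 25.4, 36.0 and 24.6 CPM in D2, and averaged 6.05 CPM in BXD75 and 1.75 CPM in BXD87. Egr4, an early growth response factor, had 5.09, 12.7 and 3.63 CPM in B6, against 21.4, 31.7 and 29.1 CPM in D2, and Grem1, a secreted inhibitor of bone morphogenetic proteins, had 4.02, 9.48 and 3.39 CPM in B6, against 19.96, 22.7 and 21.2 CPM in D2. The log2 differences of Glp1r, Egr4 and Grem1 were -2.59, -1.96 and -1.94, and -2.20, -0.73 and -1.20 with GC offsets. Rprml, Nell2 and Abr had the same form, with log2 differences of -2.13, -1.94 and -1.82, and of -1.28, -0.91 and -1.18 with GC offsets. At all 6 promoters B6 library 2 was the highest B6 library, D2 library 2 the highest D2 library, and BXD87 lower than the lowest D2 library. Glp1r and Rprml were called in all 6 fits that left out 1 library, and Egr4, Grem1, Nell2 and Abr in 1 of them. Nell2 and Abr were not called in the fit over peaks of like span alone.

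At several promoters with large differences in favour of B6 the second span was much shorter than the mm10 span. The peak at St3gal4, a sialyltransferase, spans 28920 bp on mm10 and 1903 bp on the second genome, and had 232, 233 and 221 CPM in B6, against 31.2, 33.2 and 47.6 CPM in D2. The peak at Epas1, the hypoxia-inducible factor HIF-2α, spans 52954 bp and 5820 bp, and had 508, 537 and 532 CPM in B6, against 99.5, 98.8 and 123 CPM in D2. Usp13, Ank, Elk3, Arap2, Acss1 and Lhx9 had the same form, with span ratios of 0.10 to 0.21 and log2 differences of 2.03 to 2.70. At St3gal4 the BXD lines averaged 214 and 221 CPM, and at Epas1 459 and 518 CPM, in BXD75 and BXD87, near the B6 means of 228 and 526 CPM. The most marked promoters called higher over all peaks, at Rbpms, C130050O18Rik, Gm16253, E030018B13Rik and Pim3, likewise had span ratios of 0.14 to 0.85. Promoters lower in B6 with a longer second span were those of Nudt10, a diphosphoinositol phosphatase (ratio 1.14, log2 difference -4.42), and the histone gene Hist2h3c2 (1.58 and -2.28). These peaks are given for their values, and no strain difference in the mark is read from them.

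Away from promoters, 2 peaks of like span had reads in B6 and none in D2. That between genes, 48857 bp from the start of Ero1lb, had 5.21, 5.84 and 6.29 CPM in B6. That within Pcdh15 had 5.56, 2.92 and 5.32 CPM in B6. A peak 17778 bp from the start of Ostc (chr3:130690669-130692663) had 24.02, 20.9 and 26.1 CPM in B6, against 5.87, 7.64 and 5.29 CPM in D2 (log2 difference 1.90 ± 0.22, adjusted p 8.31e-05). Lower in B6 was a peak at Flt4, the receptor of lymphatic growth factors, with 3.08, 1.46 and 2.30 CPM in B6, against 29.8, 35.8 and 27.97 CPM in D2, and one at Mfap1b with 1.06, 0.88 and 0.61 CPM in B6, against 18.8, 16.7 and 19.7 CPM in D2. A peak within Prdm13 (log2 difference -2.11) was not called with GC offsets (-0.66). Lack of overlap between the strains was a condition for naming all these peaks, that within Prdm13 included. The other 5 were called in all 6 fits that left out 1 library. The peaks at Flt4, Mfap1b and Prdm13 were found on the second genome alone, and the genome on which each library was counted is not stated. An intergenic peak nearest to Wdr45 rose by log2 2.07 in B6, and the peaks at Cdk14 (span ratio 0.31, log2 difference 2.67) and at Olfr56 and Tgtp2 (1.12, -2.72) were of unlike span.

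In all, 8 tested peaks had no read in any D2 library and 4 had none in any B6 library, and all 12 were called. The 4 without B6 reads were promoters found on the second genome alone. Gm9780 had 52.4, 54.9 and 54.4 CPM in D2 and Zxda, an X-linked zinc finger gene, 29.6, 34.4 and 28.7 CPM in D2, which with a floor of 3 reads over the B6 libraries is at least 423-fold and at least 243-fold lower in B6. Entpd4b, a nucleotidase, was at least 225-fold lower in B6. The BXD lines carried all 4, with 59.5 and 46.3 CPM at Gm9780 in BXD75 and BXD87. They also carried peaks without D2 reads, with means of 13.2 and 10.1 CPM at Zfp995 and 4.75 and 5.32 CPM near Ero1lb. On which genome each library was counted is not stated. At peaks without reads in a founder, an absent mark and uncounted reads thus cannot be told apart. Of the 8 without D2 reads, Gm8113 (9.49 ± 0.80 CPM in B6) had no read in either BXD line and a second span 0.18 of its mm10 span. A peak between genes, 29235 bp from the start of 6720489N17Rik and with a second span 0.94 of mm10, with 11.4, 9.92 and 10.6 CPM in B6, was higher in B6 by at least 39.4-fold and averaged 13.9 and 10.98 CPM in BXD75 and BXD87.

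The levels of the BXD lines were set beside those of the founders. Among peaks of like span, 268 were called, differed by over 2-fold and did not overlap between the founders. A line was set near a founder where it lay within 25% of the distance between the founders' log2 means, or beyond that founder. BXD75 lay near B6 at 168, near D2 at 39 and between at 61, and BXD87 lay near B6 at 228, near D2 at 28 and between at 12. Both lines lay near B6 at 161 and near D2 at 22. Of the 161, 121 were lower in B6, and 129 were also called with GC offsets, as were all 22. The placing used levels without GC offsets. GC slopes were -0.60, -0.24 and -0.61 in the BXD87 libraries and 0.53, -0.47 and -0.11 in the BXD75 libraries. The part of base composition in these counts was not tested. The founders' values chose these peaks and enter the placing, so the counts are a description.

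At 18 of the 268 the lines split, 1 near each founder, and all but 1 near Cdh20 (log2 difference 0.88) were also called with GC offsets. At 12 of them B6 was higher and at 6 lower, 7 were promoters, and the line nearer B6 was BXD87 at 14 and BXD75 at 4. Hdhd3, a haloacid dehalogenase family gene whose promoter is printed above, had 59.4, 53.7 and 57.8 CPM in B6, against 142, 134 and 142 CPM in D2 (log2 difference -1.29 ± 0.11, adjusted p 3.46e-06). BXD75 had 118, 157 and 145 CPM there and BXD87 70.2, 64.4 and 68.5 CPM, so the first stood at the D2 level and the second near B6. About 2 kb away, within Bspry, a second peak showed the same order, with 8.87, 10.4 and 10.9 CPM in B6, against 46.0, 45.1 and 36.3 CPM in D2, and means of 34.1 CPM in BXD75 and 10.7 CPM in BXD87.

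Fggy split the other way. Its promoter had 29.8, 36.5 and 27.7 CPM in BXD75, at the B6 level, and 3.18, 3.70 and 3.61 CPM in BXD87, below every D2 library. Mndal, an interferon-inducible gene of the PYHIN family, had 4.97, 1.31 and 4.23 CPM in B6, no read in D2, at most 0.14 CPM in a BXD75 library and 6.75, 5.88 and 5.83 CPM in BXD87. A peak between genes, 314606 bp from the start of Ttc14, had 24.02, 16.8 and 23.1 CPM in B6 and 11.03, 10.98 and 7.18 CPM in D2, with means of 4.21 CPM in BXD75 and 31.1 CPM in BXD87. Of the 12 split peaks that were higher in B6, the lower line lay below the D2 mean at 9.

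The other split peaks spread over the genome. Gm20513, whose start lies within the class II histocompatibility gene H2-Eb1, had 19.5, 19.5 and 18.1 CPM in B6, against 4.46, 6.68 and 7.56 CPM in D2, and averaged 14.8 CPM in BXD75 and 2.16 CPM in BXD87. Peaks within Mns1 and Tex9, Mturn and Anks1b, and peaks outside promoters whose nearest gene start was that of Ostc, Phip or, 435185 bp away, Cdh20, were higher in B6 and followed B6 in BXD87. The promoter peak of Gm16348 and a peak 261600 bp from the start of Mpped2 were higher in B6 and followed B6 in BXD75. Peaks at the protocadherin genes Pcdhb19 and Pcdhga4, at Adamts4 and at Spef1 were lower in B6 and followed B6 in BXD87.

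**Figure D5:**
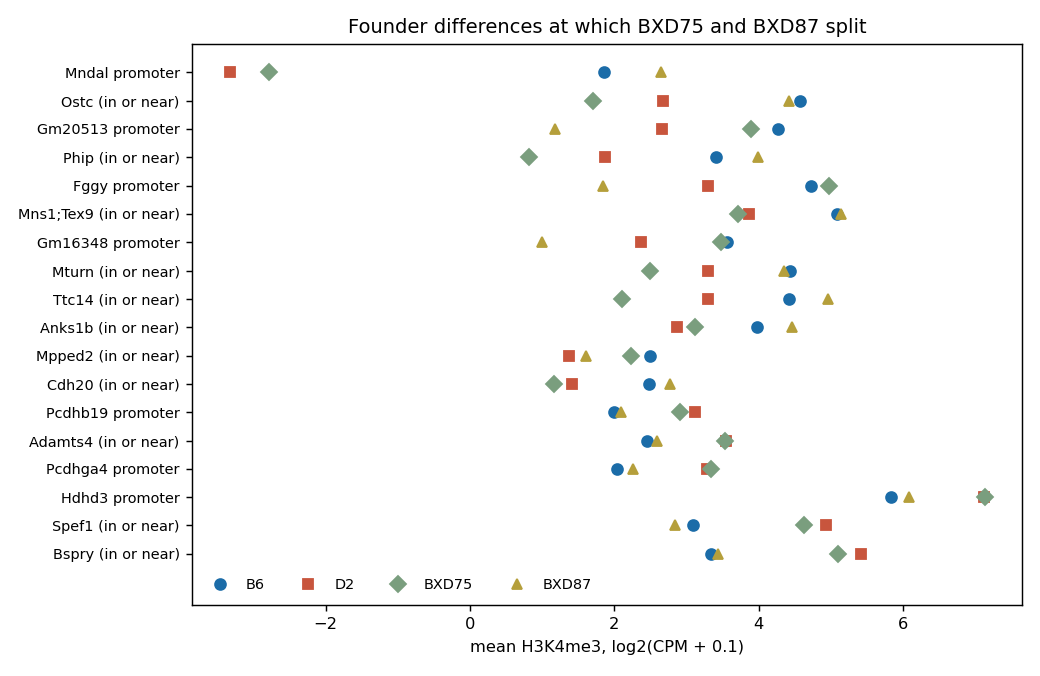
The plot gives the mean H3K4me3 level, as log2 of CPM + 0.1, of B6, D2, BXD75 and BXD87 at the 18 peaks of like span where the founders differed and the lines split, 12 higher and 6 lower in B6. At Hdhd3 the BXD75 mean of 140 CPM lies on the D2 mean and the BXD87 mean of 67.7 CPM near B6, and at Fggy BXD75 lies on B6 and BXD87 below D2.

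The same strain contrast in hepatocytes was set beside that in cardiomyocytes at 8138 peaks that overlap by at least 50% of both spans. Of these 474 (5.82%) were called in cardiomyocytes and 632 (7.77%) in hepatocytes, and 76 in both, 61 in the same direction. That is 16.0% of the matched cardiomyocyte calls and 12.03% of the matched hepatocyte calls. A further 1077 called cardiomyocyte peaks had no match. The strain difference itself differed between the cell types at 522 peaks (6.41%) in a fit with an interaction term, and at 313 of the 6977 matched peaks of like span in both tables. Of these 6977, 232 peaks were called in cardiomyocytes, 561 in hepatocytes and 47 in both, 37 of them in the same direction.

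Fggy, Rab6b and Mturn differed between the strains in both cell types, and more in hepatocytes. In hepatocytes Fggy had 47.7, 50.4 and 49.7 CPM in B6, against 3.17, 3.90 and 2.09 CPM in D2, Rab6b had 23.6, 38.2 and 29.3 CPM in B6, against 1.20, 1.73 and 1.39 CPM in D2, and a peak in Mturn had 25.7, 26.8 and 26.9 CPM in B6, against 1.31, 1.37 and 1.48 CPM in D2. The hepatocyte log2 differences were 3.99, 4.36 and 4.24, against 1.42, 1.02 and 1.15 in cardiomyocytes. Ddo, Clu and Bag3 differed in cardiomyocytes (1.04, 0.92 and 0.49) more than in hepatocytes (0.12, 0.09 and 0.04). The peak near Mns1 and Tex9 was called in both, with a log2 difference of 1.20 in cardiomyocytes and 0.80 in hepatocytes, and its interaction was not called (0.39 ± 0.24, adjusted p 0.392).

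Called peaks were spread over the chromosomes. Of 520 bins of 5 Mb that held a tested peak 418 held a called one, with a median of 2 per bin. The most were in chromosome 11 between 115 and 120 Mb, with 18 of 148 peaks called and 13 of those 18 of like span, in chromosome 5 between 120 and 125 Mb, with 15 of 128, and in chromosome 8 between 70 and 75 Mb, with 14 of 89. By place, 999 of 14869 peaks with their midpoint in an intron, 293 of 4966 between genes, 114 of 1602 in coding sequence and 107 of 1812 in a UTR were called. Among peaks of like span, split by width into 5 equal classes, the widest held 218 higher and 107 lower, and the narrowest 47 higher and 121 lower.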

How the data were processed

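H3K4me3 was measured in 12 cardiomyocyte libraries from the 2 founders and 2 BXD lines. The authors deposited 1 table of whole-number read counts per peak for each cell type, not normalized, with the position of each peak in mm10 and in another genome. CASAVA 1.8, BWA 0.5.10, MACS 1.4.2 and mm10 are named in the submitters' processing notes, without their roles. On which genome's interval each library was counted, and the build of that other genome, are not given in the sources used here, and whether the deposited start coordinates count from 0 or 1 is not given either.

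The counts of all 12 libraries were fitted in edgeR 4.0.16 (R 4.3.3) with filterByExpr, TMM scaling and robust quasi-likelihood, with strain as the only term, and p-values were adjusted by Benjamini-Hochberg over all 23809 peaks. Levels are CPM of the reads in peaks, and the SE of a log2 difference is its size over the square root of F. A promoter peak lies within 1 kb of a GENCODE basic start, and a gene takes its most marked one. Offsets by GC content are loess curves of each library against the mean library. The hepatocyte table was matched at 50% reciprocal overlap. Reads in peaks were 2618483 to 12775606 per library, and the numbers of reads limit the D2 values most. The main edgeR fit was first checked on simulated counts without a GC trend, and the other fits and tests were not.

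Members and gene lists were chosen with earlier results of these data known. Named peaks were called, did not overlap between the founders and had at least 20 reads in every library of the higher strain. They are the largest differences at promoters of protein-coding genes (12 in each direction) and elsewhere (5), the most marked promoters (5), the 3 with most reads where 1 founder had none, and the called list members with a few members not called. After the data were seen the rule was applied again to peaks of like span. No 2 libraries agreed within sampling noise. A few peaks that the rule names are not reported here.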

Additional observations from a re-analysis of the deposited data

Results flagged for a closer look

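At 522 of 8138 matched peaks the B6 minus D2 difference itself differed between cardiomyocytes and hepatocytes in a fit with an interaction term (adjusted p under 0.05). Of these, 293 had a larger and 229 a smaller value in cardiomyocytes. Over peaks of like span in both tables the majority was the other way, with 126 larger and 187 smaller of 313. Among the promoters and peaks named above, the interaction was called at 6 of like span in both tables. The cardiomyocyte minus the hepatocyte log2 difference was -2.58 at Fggy, -3.34 at Rab6b and -3.09 at Mturn, and 0.92 at Ddo, 0.84 at Clu and 0.45 at Bag3. The first 3 differed in the same direction in both cell types, and the last 3 had hepatocyte differences of 0.12, 0.09 and 0.04. Groups of 3 libraries are too small to look for a single library far from the others at one peak.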

How the results depend on the processing

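Counts of called peaks moved with the libraries, the model and offsets by GC content, and less with the other scalings. Against 1551 calls, 967 higher and 584 lower in B6, DESeq2 gave 2536 (1483 higher, 1053 lower) and the B6 and D2 libraries alone 3347 (1762 and 1585). Leaving out 1 library gave 502 to 3679 calls (419 to 1862 higher, 64 to 1817 lower). DESeq2's size factors (1591), total reads (1538), offsets by level (1598), no filter (1551), a filter at 50 reads (1505), libraries thinned to the D2 depth (1358) and peaks found on both genomes (1403) stayed within 1.5 times. Replicate numbers were also fitted as a block, although same-numbered B6 and D2 libraries deviated together by correlations of 0.106, 0.208 and -0.299, so the numbers do not pair them. The block gave 831 calls (620 higher, 211 lower), and over peaks of like span 108 (64 and 44).

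The following were chosen after seeing the data. Offsets by GC content gave 2904 calls (1958 higher, 946 lower), with the replicate block 2573 (1777 and 796), and with level as well 3017 (1805 and 1212). B6 library 2 alone against D2 gave 291 (258 and 33). Peaks of like span gave 528 (326 and 202), and without B6 library 2 they gave 2811 (1267 and 1544).

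The 14 sarcomere genes called higher were 9 over peaks found on both genomes, 8 to 14 without 1 library, 7 with B6 library 2 alone and 3 over peaks of like span with the replicate block. The median sarcomere difference ranged from 0.41 to 0.62 over the alternatives. The 522 interactions with hepatocytes were 1031 with any overlap of 1 bp, 181 at 80% and 313 over peaks of like span, against 514 with the replicate block. Meis2 turned to a log2 difference of -0.027 with offsets by GC content and level. No other named peak changed direction. The medians of some lists changed sign, and that of ion channels and conduction ranged from -0.09 to 0.19. Of 91 named peaks of like span, 75 were called in the fit over peaks of like span alone, and 42 in all 6 fits without 1 library. Low depth limits the D2 libraries, where a peak without a read can still hold up to the floor of 3 reads.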
